A study of Arabidopsis thaliana with 58 samples.

Results

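Described here are 38 genes of the auxin response of Arabidopsis thaliana, 29 Aux/IAA genes and 9 ARF genes, out of 33610 genes in the deposited expression table. They were chosen by family name and gene identifier and not by any measured value. The analysed samples were whole seedlings, 9 days old, grown under constant white light. WT seedlings were of the Col-0 ecotype, and the pkl mutants lack normal function of PKL (PICKLE), a chromatin remodeller of the CHD3 type. The pkl allele is not named in the sources used here. Lists of chromatin immunoprecipitation (ChIP-seq) peaks were analysed for the 3 methylation states of lysine 4 of histone H3 (H3K4me1, H3K4me2 and H3K4me3) in WT and pkl, and for PKL itself in WT, jaw-5D, pifQ and hy5, with 3 libraries in each group, which the labels call biological replicates. In jaw-5D a microRNA that represses TCP growth regulators is overexpressed. The pifQ line lacks several phytochrome interacting factors, and hy5 lacks a transcription factor that promotes seedling development in response to light. The labels name no change of the PKL gene in these 3 lines, and PKL was precipitated with an antibody to the native protein. Expression was available for 3 pkl libraries, with 17300314 to 17656899 counts in genes. The study asked how PKL relates to H3K4 methylation and to the arrangement of its loci in the nucleus.

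Auxin acts by removing repressors. Aux/IAA proteins bind ARF transcription factors and recruit a corepressor to them. When auxin enters its receptor, a TIR1 or AFB F-box protein, the receptor marks Aux/IAA proteins for destruction and frees the ARFs on the promoters of their target genes, among which are most Aux/IAA genes themselves. The ARFs fall into activators, here ARF5, ARF6, ARF7, ARF8 and ARF19, and repressors, here ARF1 to ARF4. H3K4me3 lies at the starts of transcribed genes, H3K4me1 in the bodies of longer transcribed genes, and H3K4me2 in plants is also found on genes with little transcription.

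For each gene and library the measured value was the number of base pairs (bp) under the authors' peaks. The window was the gene for the histone marks and the gene with 1000 bp upstream for PKL. A gene was called marked in a library at 150 bp or more, and bound by PKL at 50 bp or more, and a group of 3 libraries counted when at least 2 of them passed. The 9 ARF genes were 3710 to 5669 bp long with a median of 4853 bp, and the 29 Aux/IAA genes 833 to 3063 bp with a median of 1420 bp, so bp are given beside the percent of the gene. Peak numbers were 14395 to 21880 per histone mark list and 11379 to 13979 per PKL list of the mutant lines. The WT PKL lists held 821, 632 and 2824 peaks, so WT replicate 3 stood apart from replicates 1 and 2. The WT PKL lists also end at a q-value of 0.01 and name chromosomes in another way, while the other lists end at 0.05. How the list was made and genotype therefore cannot be told apart in any PKL comparison with WT. Leaf and photosynthesis markers were expressed in the pkl libraries for 5 of 5 genes, at a mean of 2747 to 24410 TPM, a measure of transcript share corrected for gene length. Root markers reached 1 TPM for 5 of 5 genes, at 2.14 to 84.6 TPM, and seed and embryo markers for 0 of 5, with LEC1 and FUS3 at 0. The PKL gene itself (AT2G25170) had 29.6, 31.9 and 33.9 TPM in the 3 pkl libraries, so transcripts of the mutated gene were still counted, and this does not test the pkl label.

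PKL peaks lay on 4 of the 29 Aux/IAA genes and 0 of the 9 ARF genes in WT, where 2.15% of 33331 nuclear genes were bound. The 4 genes were IAA2, IAA3, IAA9 and IAA19. IAA2 (AT3G23030; TAIR10 chromosome 3, 8180768 to 8181800, minus strand) had 308, 259 and 426 bp under PKL peaks in WT replicates 1 to 3. IAA9 (AT5G65670; chromosome 5, 26253658 to 26256468, plus strand) had 330, 256 and 324 bp, and these were the only members bound in all 3 WT libraries. IAA3 (AT1G04240, also called SHY2; chromosome 1, 1128188 to 1129551, minus strand), whose stable mutant forms alter light-grown seedling form and root meristem size, had 0, 216 and 293 bp. IAA19 (AT3G15540; chromosome 3, 5264024 to 5265678, plus strand), a repressor in hypocotyl bending, had 304, 197 and 0 bp. In the authors' lists the summits of these peaks lay upstream of the gene start, at -107 to -153 bp for IAA2, -96 to -145 bp for IAA3, -346 to -396 bp for IAA9 and -121 to -168 bp for IAA19. A further 8 members, IAA1, IAA4, IAA7, IAA8, IAA16, ARF2, ARF6 and ARF8, were bound in WT replicate 3 alone, the list with the most peaks. Counted at 3 of 3 libraries the WT number is 2 members, and counted at 1 of 3 it is 12. With the gene alone as the window it is 1.

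In the 3 mutant lines PKL peaks lay on 20 or 21 of the 38 members. In jaw-5D 15 Aux/IAA and 6 ARF genes were bound. The numbers were 16 Aux/IAA and 5 ARF genes for pifQ and 15 Aux/IAA and 5 ARF genes for hy5. Over all nuclear genes the bound share was 30.4% in jaw-5D, 30.5% in pifQ and 27.4% in hy5, while it was 55.3%, 55.3% and 52.6% of the 38 members. In each line the share among the members of both families was above that of all genes. It was 51.7% to 55.2% of Aux/IAA and 55.6% to 66.7% of ARF members, with no test of the difference. Of the 13 ARF genes outside the members 5, 5 and 4 were bound in jaw-5D, pifQ and hy5. The ARF share thus does not describe the whole ARF family. The same 18 members, 14 Aux/IAA and 4 ARF, were bound in all 3 lines, and the 4 genes bound in WT were among them. The share of all nuclear genes bound in all 3 lines was not computed. Of the activator ARFs 3 of 5 were bound in each line, ARF6, ARF8 and ARF19, and of the repressor ARFs 3, 2 and 2 of 4. With each list limited to its 632 strongest peaks, the number in the shortest WT list, 6, 5 and 5 members were bound in jaw-5D, pifQ and hy5, against 1.9%, 1.89% and 1.71% of nuclear genes. In WT 3 members were bound at that number of peaks, against 1.16%.

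**Figure D1:**
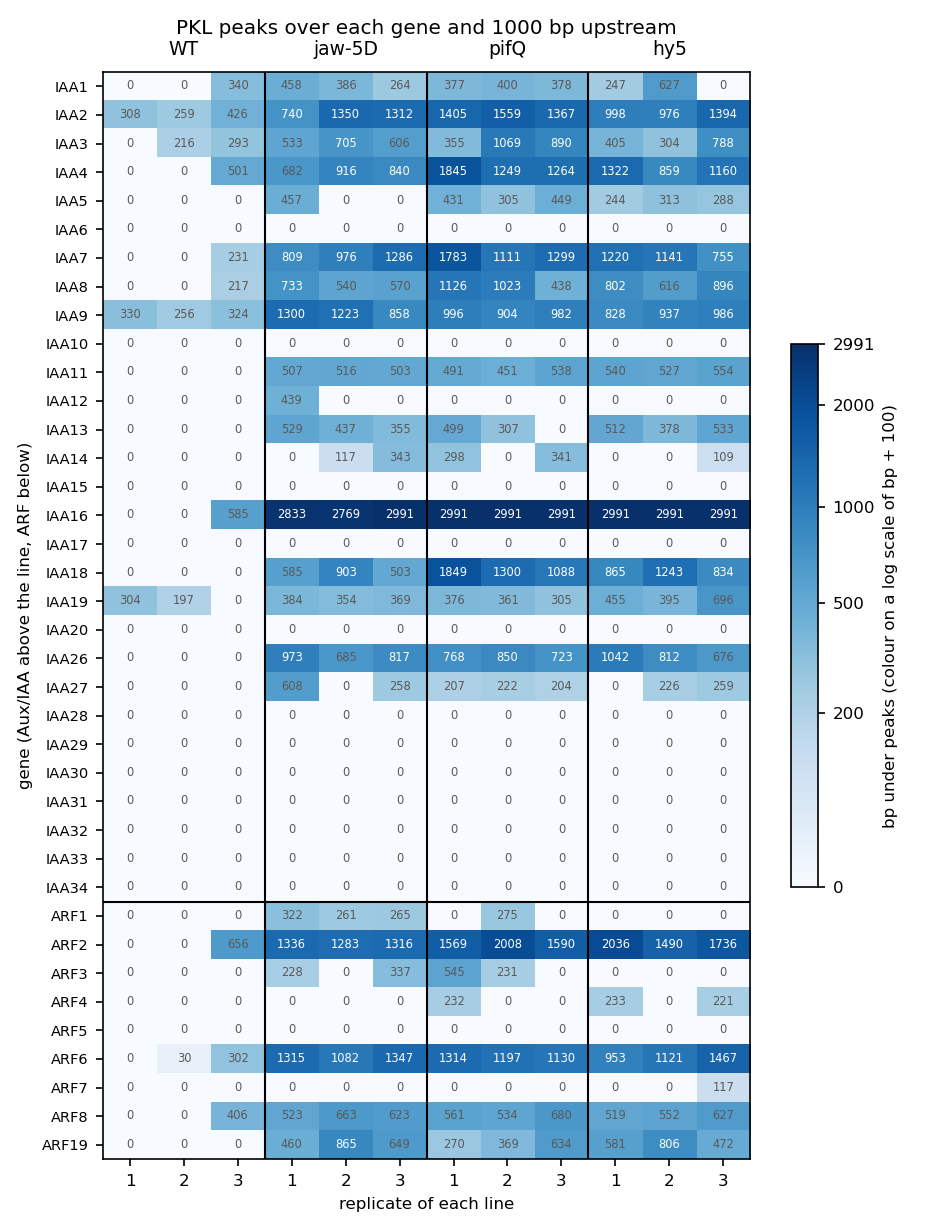
Each cell gives the bp under PKL peaks over a gene and the 1000 bp before it, for 38 genes (rows) in 12 libraries (columns, 3 replicates of each of 4 lines), with darker blue for more bp on a log scale. IAA16 reaches its whole window of 2991 bp in all pifQ and hy5 libraries, and 12 Aux/IAA genes and ARF5 are at 0 in every library.

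The members bound in all 9 mutant libraries were IAA2, IAA3, IAA4, IAA7, IAA8, IAA9, IAA11, IAA16, IAA18, IAA19 and IAA26, with ARF2, ARF6, ARF8 and ARF19. No PKL peak of 50 bp or more was found in any of the 12 libraries on IAA6, IAA10, IAA15, IAA17, IAA20, IAA28, IAA29, IAA30, IAA31, IAA32, IAA33, IAA34 or ARF5. IAA20 and IAA30 to IAA34 belong to the Aux/IAA genes whose proteins lack a complete canonical degron through which auxin acts. ARF5 (AT1G19850, also called MP), the activator that sets up the embryonic root and vascular axis, was the single ARF member in the unbound class. The other 10 members were bound in 1 to 8 mutant libraries, among them IAA12, the ARF5 partner in the embryo, in 1 library and ARF7 in 1 library.

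IAA16 (AT3G04730; chromosome 3, 1288612 to 1290602, minus strand), a repressor of auxin and abscisic acid responses, had the longest PKL cover of the members. It had 0, 0 and 585 bp in WT and 2833, 2769 and 2991 bp in jaw-5D, and all 3 libraries of pifQ and of hy5 covered the complete 2991 bp window. Its peaks were 1735 to 5320 bp long and reached as many as 2 neighbouring genes, so its cover is not confined to the IAA16 unit. Next came ARF2 (AT5G62000; chromosome 5, 24910358 to 24915210, plus strand), a repressor ARF that limits seed size and promotes leaf ageing. ARF2 had 0, 0 and 656 bp in WT, 1336, 1283 and 1316 bp in jaw-5D, 1569, 2008 and 1590 bp in pifQ, and 2036, 1490 and 1736 bp in hy5. Its strongest mutant peaks were 1566 to 2963 bp long and reached as many as 1 neighbouring gene. Their summits lay from -1984 to -62 bp. In jaw-5D replicate 2, pifQ replicates 2 and 3 and hy5 replicate 1 they lay at -1984 to -1959 bp, outside the window. The ARF2 cover is thus not confined to ARF2 either. Every mutant library was above every WT library for both genes. The share of all genes with such a separation in PKL cover was not computed, and the WT lists held far fewer peaks. The separation is therefore not shown to be particular to these members, here or at the genes below.

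Genes whose strongest peak lay before the start form one group. IAA2, with the WT values above, had 740, 1350 and 1312 bp in jaw-5D, 1405, 1559 and 1367 bp in pifQ, and 998, 976 and 1394 bp in hy5. Its mutant summits lay between -161 and -82 bp, in the same stretch as in WT. IAA3 had 533, 705 and 606 bp in jaw-5D, 355, 1069 and 890 bp in pifQ, and 405, 304 and 788 bp in hy5. IAA9 had 1300, 1223 and 858 bp in jaw-5D, 996, 904 and 982 bp in pifQ, and 828, 937 and 986 bp in hy5, with summits from -388 to -332 bp. All mutant libraries were above all WT libraries at these 3 genes. IAA19 had 384, 354 and 369 bp in jaw-5D, 376, 361 and 305 bp in pifQ, and 455, 395 and 696 bp in hy5, and each of the 9 values exceeded the highest WT value of 304 bp. IAA26 (also called PAP1, a phytochrome-associated Aux/IAA) had 0 bp in the 3 WT libraries, 973, 685 and 817 bp in jaw-5D, 768, 850 and 723 bp in pifQ, and 1042, 812 and 676 bp in hy5. ARF8 (AT5G37020; chromosome 5, 14630028 to 14634387, plus strand), which with ARF6 drives flower maturation, had 0, 0 and 406 bp in WT. It had 523, 663 and 623 bp in jaw-5D, 561, 534 and 680 bp in pifQ, and 519, 552 and 627 bp in hy5, with all 9 mutant summits between -563 and -506 bp.

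A second group carried its strongest peak near the end of the gene. In IAA7 (AT3G23050; chromosome 3, 8194679 to 8197153, plus strand), known as AXR2 for its auxin-resistant mutant, all 9 mutant summits lay inside the gene, at -212 to -151 bp from its end. It had 0, 0 and 231 bp in WT, 809, 976 and 1286 bp in jaw-5D, 1783, 1111 and 1299 bp in pifQ, and 1220, 1141 and 755 bp in hy5. For ARF6, 8 of 9 summits lay past the gene end, with a median of 46 bp beyond it, and the WT replicate 2 and 3 summits were at 41 and 23 bp beyond it. Summits past a gene end lie outside the window, here as for ARF19 and IAA16 below. ARF6 had 0, 30 and 302 bp in WT, 1315, 1082 and 1347 bp in jaw-5D, 1314, 1197 and 1130 bp in pifQ, and 953, 1121 and 1467 bp in hy5. Its strongest mutant peaks were 356 to 804 bp long, and 3 peaks touched its window in each mutant library. The ARF6 cover is thus not that of the strongest peak alone. ARF19, which acts with ARF7 in lateral root formation, had 5 of 9 summits past its end and 4 upstream of its start. It had 0 bp in all WT libraries, 460, 865 and 649 bp in jaw-5D, 270, 369 and 634 bp in pifQ, and 581, 806 and 472 bp in hy5. All mutant libraries were above all WT libraries at these 3 genes. IAA16 had 7 of 9 summits past its end and 2 inside. In contrast, 12 of the 29 Aux/IAA genes and ARF2 and ARF8 had a median mutant summit upstream of the start.

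Other Aux/IAA genes bound in the mutant lines ranged widely in cover. IAA4 had 0, 0 and 501 bp in WT, 682, 916 and 840 bp in jaw-5D, 1845, 1249 and 1264 bp in pifQ, and 1322, 859 and 1160 bp in hy5. IAA8 had 0, 0 and 217 bp in WT, 733, 540 and 570 bp in jaw-5D, 1126, 1023 and 438 bp in pifQ, and 802, 616 and 896 bp in hy5. The mutant summits of IAA8 lay from -1075 to -457 bp, with a median of -1039 bp, outside the 1000 bp upstream. Its peaks reached as many as 1 neighbouring gene. IAA18, whose stable form disturbs embryo and leaf patterning, was at 0 in WT and had 585, 903 and 503 bp in jaw-5D, 1849, 1300 and 1088 bp in pifQ, and 865, 1243 and 834 bp in hy5. In all 3 genes every mutant library exceeded every WT library. IAA11 was the steadiest, at 0 in WT and between 451 and 554 bp in all 9 mutant libraries. IAA13 was at 0 in WT, with 529, 437 and 355 bp in jaw-5D, 499, 307 and 0 bp in pifQ, and 512, 378 and 533 bp in hy5. IAA5 was at 0 in WT, with 457, 0 and 0 bp in jaw-5D, 431, 305 and 449 bp in pifQ, and 244, 313 and 288 bp in hy5. IAA27 was at 0 in WT, with 608, 0 and 258 bp in jaw-5D, 207, 222 and 204 bp in pifQ, and 0, 226 and 259 bp in hy5. These last 3 genes each had at least 1 mutant library without a peak.

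The limma test on log2 of bp plus 100 was fitted over 12 libraries and 11782 genes, with p-values adjusted by Benjamini-Hochberg over those genes. Of the 38 members 23 could be tested, 16 Aux/IAA and 7 ARF, and the other 15 had peaks in fewer than 3 libraries. PKL cover was longer than in WT at 16 members in jaw-5D, 17 in pifQ and 16 in hy5, and shorter at 0. Over all genes tested the longer share was 67.8% in jaw-5D, 68.6% in pifQ and 61.6% in hy5, and the shorter share 0.0255%, 0.017% and 0.0255%, so the members' longer shares of 69.6%, 73.9% and 69.6% lie near those of all genes. Since a gene enters the test mostly through the mutant lists, the direction was largely fixed by that entry. The 14 members past the threshold in all 3 lines were IAA2, IAA4, IAA7, IAA8, IAA9, IAA11, IAA13, IAA16, IAA18, IAA26, ARF2, ARF6, ARF8 and ARF19. The 3 comparisons share the WT libraries. IAA16 had the largest log2 differences, 3.96 (SE 0.60, adjusted p = 0.000201) in jaw-5D and 4.02 (SE 0.60, adjusted p = 0.000174 and 0.000186) in pifQ and hy5. ARF2 differed by 2.85, 3.21 and 3.23 (SE 0.64 each) and ARF19 by 2.89, 2.33 and 2.82 (SE 0.31 each) in jaw-5D, pifQ and hy5. Where all WT libraries were at 0, as for ARF19, the size of the fitted difference depends on the 100 bp added before the logarithm. IAA3 passed in jaw-5D (1.62, SE 0.54, adjusted p = 0.0213) and pifQ (1.80, adjusted p = 0.0126) but had an adjusted p of 0.0602 in hy5. IAA5 passed in pifQ and hy5, IAA27 in pifQ, ARF1 in jaw-5D and IAA19 in hy5 (1.40, SE 0.44, adjusted p = 0.018). Over the 261 genes with peaks in every library, the library medians were shifted by 1.15, 1.23 and 1.11 on the log2 scale in jaw-5D, pifQ and hy5. Relative to that shift the numbers of longer members were 8, 10 and 10 of 23, against 35.2%, 33.2% and 32.8% of all genes tested. The median log2 difference over all genes tested was 1.97, 1.96 and 1.71, and still 0.82, 0.73 and 0.60 relative to that shift. Taking out the shift thus did not remove the difference between the lists. With 632 peaks per list they were 3 of 4 members tested in jaw-5D, 1 of 4 in pifQ and 1 of 3 in hy5, against 43.1%, 41.6% and 30.3% of all genes tested.

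Between the mutant lines 1 member passed the test. ARF1 (AT1G59750; chromosome 1, 21979289 to 21984433, plus strand), which acts with ARF2 in shedding of flower parts, had 322, 261 and 265 bp in jaw-5D, 0, 275 and 0 bp in pifQ, and 0 bp in all 3 hy5 libraries. The jaw-5D and hy5 libraries did not overlap. The log2 difference of hy5 from jaw-5D was -1.93 (SE 0.43, limma adjusted p = 0.0466), the single call among 23 members, where 1.9% of all genes tested were shorter and 0.645% longer. ARF1 entered the test through the 3 jaw-5D libraries and 1 pifQ library, so its entry largely fixed the direction, and the size depends on the 100 bp added to values of 0. It lost the threshold when any of the 6 libraries was left out, with adjusted p between 0.089 and 0.12. In pifQ against jaw-5D 0 of 23 members passed in limma, 3 had an unadjusted p under 0.05 (13.4% of all genes tested), and the lowest adjusted p was 0.107, for IAA18, where 1.35% of all genes were longer and 1.11% shorter. In hy5 against pifQ 0 of 23 passed, 1 had an unadjusted p under 0.05 (12.1% of all genes tested), and the lowest adjusted p was 0.412, for ARF3, where 0.187% were longer and 1.07% shorter. Over the 261 genes with peaks in every library, the library medians were shifted by -0.11 on the log2 scale in hy5 against pifQ. These values do not show that the lines bind alike. Among the weakly bound repressors, ARF3 (also called ETT, a regulator of gynoecium and leaf polarity) had 228, 0 and 337 bp in jaw-5D, 545, 231 and 0 bp in pifQ and 0 bp in hy5. ARF4, its partner in leaf polarity, had 0 bp in jaw-5D, 232, 0 and 0 bp in pifQ and 233, 0 and 221 bp in hy5.

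Each of 3 neighbouring pairs of Aux/IAA genes lies with the starts facing each other, and the partners differed in PKL peaks. IAA3 and IAA17 (also called AXR3) are 6706 bp apart on chromosome 1 with 0 genes between them. IAA3 was bound in 11 of 12 libraries and IAA17 in 0 of 12. IAA1 and IAA14 are 11038 bp apart on chromosome 4, again with 0 genes between. IAA1 had 0, 0 and 340 bp in WT, 458, 386 and 264 bp in jaw-5D, 377, 400 and 378 bp in pifQ, and 247, 627 and 0 bp in hy5. IAA14, known as SLR for its lack of lateral roots in the stable mutant, was at 0 in WT and had 0, 117 and 343 bp in jaw-5D, 298, 0 and 341 bp in pifQ, and 0, 0 and 109 bp in hy5. IAA2 and IAA7, 12878 bp apart on chromosome 3 with 1 gene between, were both bound in all 9 mutant libraries, IAA2 before its start and IAA7 near its end. In marks, IAA1 had 676, 711 and 761 bp of H3K4me2 in WT and IAA14 had 0 in all 6 WT and pkl libraries. The partners of the other 2 pairs carried the same marks in WT, H3K4me2 and H3K4me3.

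H3K4me1 divided the ARF members from most Aux/IAA genes in WT. It was present on 9 of 9 ARF members and on 7 of 29 Aux/IAA genes, against 39.2% of nuclear genes. The 7 were IAA8, IAA9, IAA10, IAA11, IAA12, IAA13 and IAA34. Of the 13 ARF genes outside the members 6 carried it, so the mark is not on the whole ARF family. All 9 ARF members had at least 5 TPM in pkl, against 17 of the 29 Aux/IAA genes. Gene length differs between the families and moves with this mark, which was present on 64.3% of nuclear genes in the ARF length range and on 41.6% in the Aux/IAA length range. The parts of length and expression in the difference were not tested. The median share of the gene under H3K4me1 peaks was 66.2%, 65.4% and 62.5% for ARF genes in WT replicates 1 to 3 and 0 for Aux/IAA genes. Among the ARF members it ran from 47.6% ± 11.2 (SD, n = 3) for ARF5 to 78.5% ± 2.59 for ARF8. The marked Aux/IAA genes lay lower in percent, from 16.2% ± 1.57 for IAA13 to 52.2% ± 1.15 for IAA9. All 9 ARF genes were under an H3K4me1 peak at 1300 bp after the start in all 3 libraries, while 0 were at the start itself.

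H3K4me2 lay on 21 of 29 Aux/IAA and 8 of 9 ARF genes in WT (55.7% of nuclear genes), and H3K4me3 on 18 of 29 and 8 of 9 (49.5%). Here the families came in opposite order by length and by share. The median H3K4me3 cover was 698, 627 and 610 bp on Aux/IAA genes and 1101, 950 and 932 bp on ARF genes, but 29.5%, 27.9% and 28.9% of the gene against 21.9%, 16.8% and 16.4%. For H3K4me2 the medians were 454, 433 and 439 bp against 1075, 745 and 1073 bp, and 29.6%, 28.2% and 28.2% of the gene against 19.2%, 15.2% and 23.4%. H3K4me3 covered nearly all of IAA2, 97.5% ± 2.18 (SD, n = 3), and 87.7% ± 3.96 of IAA4, and at most 32.0% ± 0.396 of any ARF member, ARF2. The lowest share among marked ARF members was 11.96% ± 1.13, for ARF8. Among the 9 ARF members ARF5 alone had no H3K4me3, with 0 bp in all 6 WT and pkl libraries, and ARF1 alone lacked H3K4me2 in WT.

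**Figure D2:**
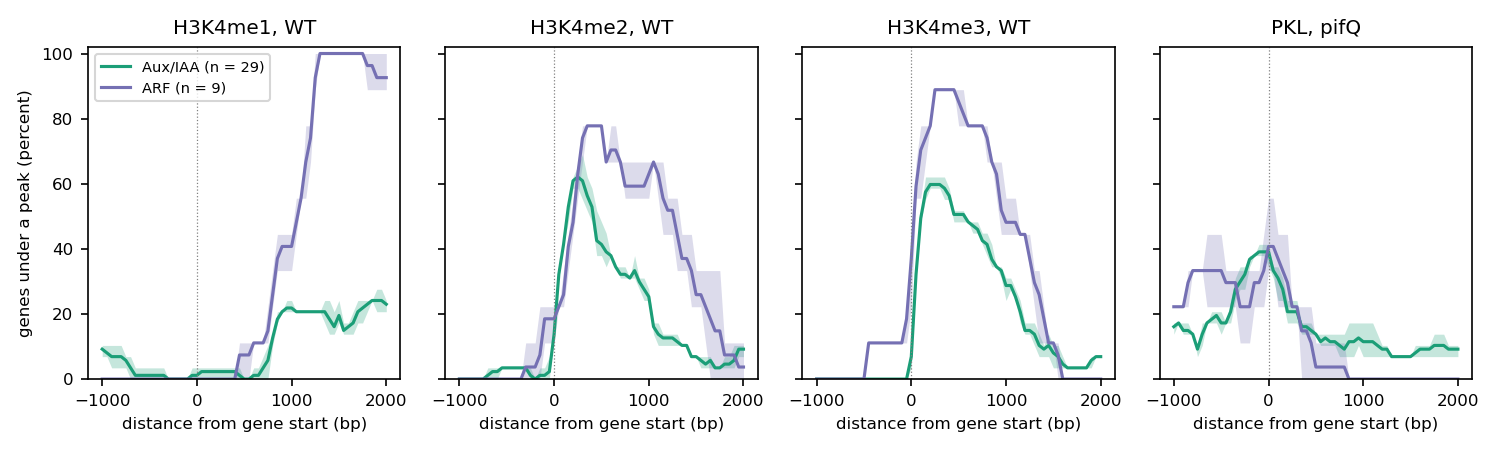
Lines give the percent of genes of each family under a peak at each distance from the gene start (bp, negative upstream), as the mean of 3 libraries, with the lowest and highest library as a band. H3K4me3 reaches 88.9% of ARF genes at 250 bp and 59.8% of Aux/IAA genes at 200 bp, H3K4me1 reaches 100% of ARF genes at 1300 bp, and many Aux/IAA genes end within the plotted range.

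Taken gene by gene, most members fell into the following classes of marks in WT. All 3 marks were present on IAA8 to IAA13 and on 7 ARFs, a class that holds 33.5% of nuclear genes. H3K4me2 and H3K4me3 without H3K4me1 were present on 9 Aux/IAA genes, IAA1, IAA2, IAA3, IAA4, IAA7, IAA17, IAA18, IAA19 and IAA26, and on 0 ARFs, a class of 12.7% of nuclear genes. Of these 9 genes, 8 were bound by PKL in at least 6 mutant libraries, the exception being IAA17. Of all nuclear genes in this class 57.0% were bound in at least 6 mutant libraries, and of all nuclear genes 26.4%. H3K4me3 alone was on IAA14, IAA16 and IAA28, a class of 1.80% of nuclear genes. H3K4me2 alone was on IAA6, IAA15, IAA20, IAA27, IAA30 and IAA31, a class of 7.19%. None of the 3 marks was found on IAA5, IAA29, IAA32 or IAA33, against 39.1% of nuclear genes. Of the remaining members, ARF5 carried H3K4me1 and H3K4me2, ARF1 H3K4me1 and H3K4me3, and IAA34 H3K4me1 alone. These classes hold 2.38%, 1.59% and 1.73% of nuclear genes.

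No member's mark passed the test between pkl and WT. In limma fits over 6 libraries, 0 of 17 members tested passed for H3K4me1, 0 of 29 for H3K4me2 and 0 of 26 for H3K4me3, where 0.697%, 1.78% and 1.53% of all genes tested passed. Those shares divide into 0.549% longer and 0.148% shorter for H3K4me1, 1.19% and 0.587% for H3K4me2, and 1.14% and 0.387% for H3K4me3. Unadjusted p-values under 0.05 were found for 0, 6 and 0 members, against 7.5%, 14.6% and 13.4% of all genes tested, and the lowest adjusted p-values were 0.790, 0.126 and 0.387. The median log2 difference of pkl from WT was 0.05, 0.14 and 0.00 over the members tested, and 0.04, 0.12 and 0.03 over all genes. The members with H3K4me3 were the same 26 in both genotypes (50.2% of nuclear genes in pkl). H3K4me1 was on the same 16 in both, with IAA32 added in pkl (40.1%), and H3K4me2 was on 28 in both (56.5% in pkl), with IAA30 in WT alone and IAA28 and ARF1 in pkl alone.

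ARF1 showed the largest difference. It had 0, 319 and 0 bp of H3K4me2 in WT and 1089, 1211 and 1312 bp in pkl, with no overlap between the groups. The log2 difference was 3.01 (SE 0.61, limma adjusted p = 0.126), and it passed the threshold with WT replicate 2 left out (adjusted p = 0.0061). That library is the only one of WT with the mark on ARF1, so without it the gene enters the test through the pkl libraries alone and the difference is largely fixed by that choice. The genotypes overlapped in its other marks, and H3K4me3 was 758, 767 and 622 bp in WT and 744, 767 and 735 bp in pkl. The WT and pkl libraries also did not overlap for H3K4me2 at IAA4, IAA6, IAA9, IAA13, IAA19, IAA26, IAA31, ARF8 and ARF19, 10 of 29 members higher in pkl with ARF1, against 18.8% of all genes tested. They did not overlap in the other direction at IAA15 (487, 433 and 439 bp in WT and 260, 426 and 342 bp in pkl) and IAA20, against 3.8%. The medians of the pkl H3K4me2 libraries, over the 16261 genes marked in every library, were shifted by 0.16 on average on the log2 scale. Relative to that shift 4 members were higher without overlap, IAA9, ARF1, ARF8 and ARF19, against 8.63% of all genes, and 5 were lower, IAA2, IAA10, IAA15, IAA20 and ARF5, against 16.6%.

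IAA9 had 454, 302 and 572 bp of H3K4me2 in WT and 830, 729 and 1136 bp in pkl (log2 difference 0.89, SE 0.25, adjusted p = 0.225). ARF8 had 709, 662 and 703 bp in WT and 854, 1608 and 1222 bp in pkl (0.71, SE 0.22, adjusted p = 0.272). ARF19 had 1172, 1004 and 1172 bp in WT and 1335, 1784 and 1428 bp in pkl (0.40, SE 0.13, adjusted p = 0.287). In these 3 genes all pkl libraries were above all WT libraries, and the differences did not pass the threshold after adjustment. IAA28, a repressor of lateral root initiation, had 0 bp of H3K4me2 in WT and 281, 489 and 0 bp in pkl. IAA14 had 987, 1257 and 918 bp of H3K4me3 in WT and 621, 707 and 0 bp in pkl (-1.56, SE 0.86, adjusted p = 0.491). The wide spread of the pkl libraries at IAA14 gives its difference a large standard error. For H3K4me3, IAA10 was the single member higher without overlap and IAA14 the single one lower, against 16.2% and 3.64% of all genes. With centred libraries IAA10 was higher, against 9.16%, and IAA1, IAA14, ARF6 and ARF7 were lower, against 9.22%. For H3K4me1, ARF3 was lower without overlap (2065, 2030 and 2193 bp in WT and 1837, 1989 and 2013 bp in pkl), against 2.8%, and 0 were higher, against 11.3%. With centred libraries ARF3 was again the single member lower, against 6.72%, and 0 were higher, against 6.48%.

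**Figure D3:**
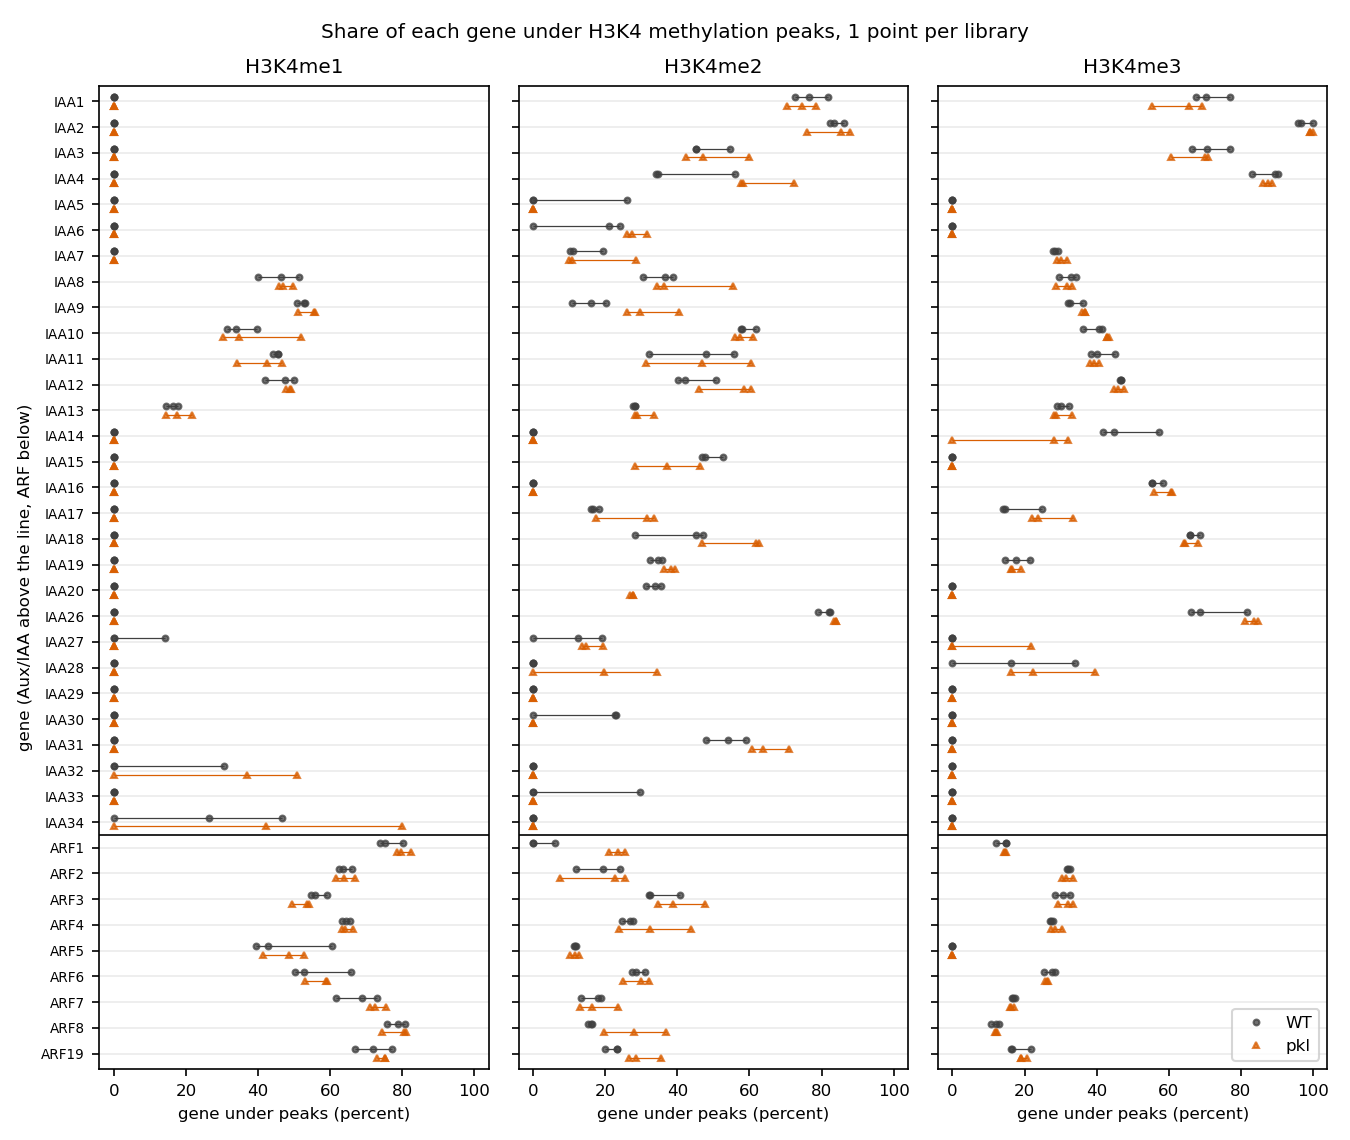
Points give the percent of each gene under peaks of each mark in 3 WT (grey) and 3 pkl (orange) libraries, and lines join the lowest and highest library of a group. H3K4me1 is present on all ARF genes in all libraries and at 0 on most Aux/IAA genes, and at ARF1 the H3K4me2 points of the genotypes are apart.

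Every ARF member and most Aux/IAA members were expressed in pkl. The deposited values are titled FPKM but sum to 999954 to 999956 per library and scale as TPM, so they are called TPM here. The comparison with WT expression was not analysed here, because the WT columns of the tables match no sample label. A mean of at least 1 TPM was reached by 20 of 29 Aux/IAA and 9 of 9 ARF genes, against 59.5% of nuclear genes, and at least 5 TPM by 17 and 9, against 46.2%. The mean level had a median of 9.61 TPM over the Aux/IAA genes, with a range of 0.0920 to 220 TPM, and of 18.6 TPM over the ARF genes, with a range of 5.84 to 86.3 TPM. Since whole seedlings were sampled, fewer cells of a type and less RNA per cell cannot be told apart.

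Among the repressor proteins, IAA9 led with 209, 229 and 224 TPM (220 ± 10.4, SD, n = 3), followed by IAA16 with 159, 155 and 155 TPM and IAA7 with 99.2, 89.95 and 91.8 TPM. These 3 genes were all bound by PKL in the 9 mutant libraries and all carried H3K4me3. Over all nuclear genes the mark classes with H3K4me3 were also bound more often than those without it, as given below. The lowest were IAA34 with 0, 0 and 0.276 TPM, IAA32 with 0.0878, 0.359 and 0.176 TPM, and IAA15 with 0, 0.290 and 0.428 TPM. A count of 0 in a library allows up to 3 counts, which is 0.412 and 0.422 TPM for IAA34 in replicates 1 and 2. These lowest genes rest on 0 to 4 counts per library, and their ranges overlapped. Of 28 neighbouring steps in the Aux/IAA order, 13 were between genes whose 3 libraries did not overlap. The top of the order was clear, with no overlap at IAA9 over IAA16 and IAA16 over IAA7, while IAA7 overlapped IAA8 (81.1, 88.8 and 91.8 TPM).

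Among the 9 ARF members, ARF2 had 84.5, 88.5 and 85.9 TPM, ARF1 25.8, 29.6 and 28.9 TPM and ARF4 23.0, 23.4 and 22.4 TPM, so the 3 highest were all repressor ARFs. The lowest were ARF3 with 14.0, 13.9 and 14.6 TPM, ARF19 with 6.30, 6.42 and 7.45 TPM and ARF5 with 5.497, 5.74 and 6.27 TPM. Of 8 neighbouring steps, 7 did not overlap, the exception being ARF7 and ARF6. In the partner pairs, IAA2 had 64.2, 73.7 and 77.1 TPM and IAA7 the values above, IAA3 had 22.5, 23.4 and 20.5 TPM and IAA17 59.6, 57.1 and 55.2 TPM, and IAA1 had 8.88, 10.02 and 9.93 TPM and IAA14 7.03, 10.2 and 7.69 TPM. The unbound IAA17 was thus above its bound partner IAA3, and IAA1 and IAA14 overlapped. IAA13 and ARF7 overlap another annotated gene, and how the authors assigned shared reads is not given in the sources used here.

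**Figure D4:**
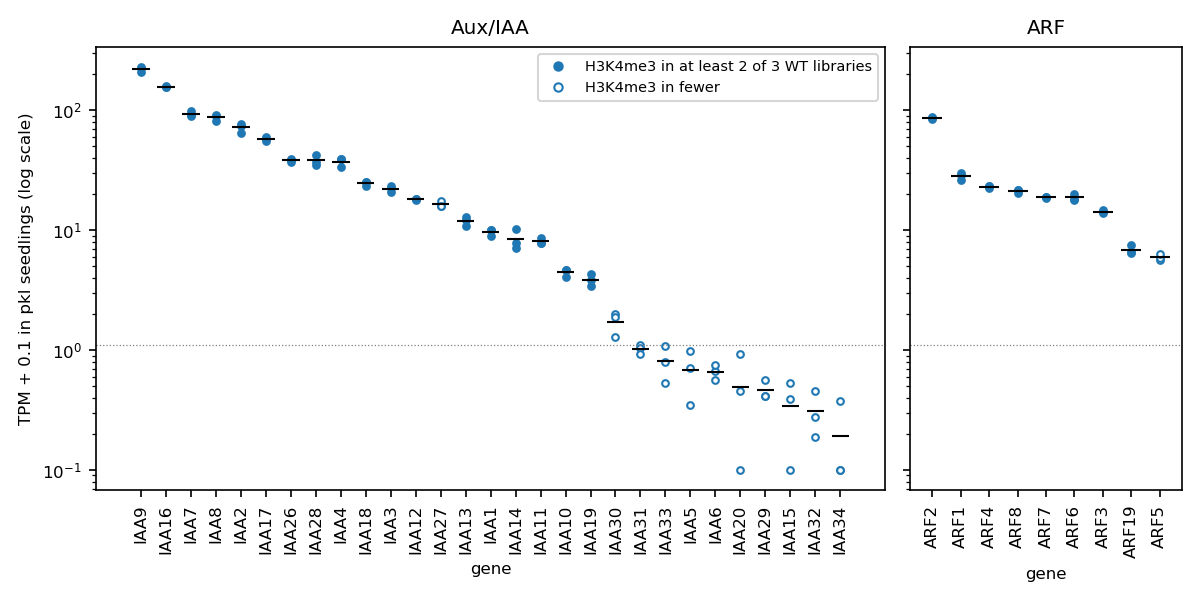
Points give TPM plus 0.1 (log axis) in 3 pkl libraries for each gene, in order of the mean (bar), with filled points for genes with H3K4me3 in at least 2 of 3 WT libraries. Of the open genes IAA27 and ARF5 alone lie above 5 TPM, and the 18 filled Aux/IAA genes reach down to IAA19 at 3.75 TPM.

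H3K4me3 in WT and the level in pkl went together across the members, as a description over genes from different libraries. The 26 members with H3K4me3 had a median of 22.5 TPM and a range of 3.75 to 220 TPM, and the 12 without it a median of 0.568 TPM and a range of 0.0920 to 16.4 TPM. IAA27 (also called PAP2; 16.4 ± 0.77 TPM, SD, n = 3) and ARF5 (5.84 ± 0.40 TPM) were the highest members without the mark. Over all nuclear genes the class with all 3 marks had a median of 16.95 TPM and the class with none 0. The 11 Aux/IAA genes bound by PKL in all 9 mutant libraries all had H3K4me3 in WT and a median of 38.2 TPM. Binding and this mark also went together over all nuclear genes. Mark classes with H3K4me3 were bound in at least 6 mutant libraries at 34.7% to 57.8%, and classes without it at 10.3% to 18.3%. The median TPM of all bound genes was not computed. Of the 12 Aux/IAA genes bound in 0 of 12 libraries, 3 had H3K4me3, and their median was 0.633 TPM. Among these 3, IAA17 (57.3 ± 2.22 TPM) and IAA28 (38.01 ± 3.81 TPM) were expressed at the level of bound genes, and IAA10 had 4.36 ± 0.36 TPM. The lowest bound gene in all 9 was IAA19, at 3.32, 4.20 and 3.73 TPM, and IAA5, bound in 7, had 0.610, 0.874 and 0.245 TPM.

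The surrounding auxin pathway gave context for the members. All 6 receptor genes carried H3K4me1 and H3K4me3 in WT, and TIR1 had PKL peaks of 477, 463 and 630 bp in WT, the single receptor bound there. In jaw-5D, pifQ and hy5, whose lists are longer, 6, 5 and 6 of the 6 receptor genes were bound. The bound share of all nuclear genes was 2.15% in WT and 30.4%, 30.5% and 27.4% in jaw-5D, pifQ and hy5. Of 14 auxin synthesis genes, 1 carried H3K4me1, 10 H3K4me2 and 4 H3K4me3, and 1 was bound in WT, YUC6 with 123, 26 and 70 bp. Of 12 transport genes 3 were bound in WT, PIN3 (375, 0 and 433 bp), PIN7 (265, 320 and 495 bp) and LAX1 (325, 200 and 512 bp). Of 7 GH3 genes, which conjugate auxin and are early auxin targets like IAA2 and IAA19, 3 were bound in WT, namely GH3.2 (259, 252 and 333 bp), GH3.3 (237, 226 and 278 bp) and GH3.5 (60, 115 and 129 bp). In jaw-5D, pifQ and hy5 the bound numbers were 3, 2 and 3 synthesis, 6, 8 and 6 transport, and 4, 5 and 4 GH3 genes. Of the 13 ARF genes outside the 9 members, 0 were bound in WT and 6 carried each of the 3 marks, the other 7 lying under 1 TPM. In the pkl comparisons 0 of the receptor, synthesis, transport and other ARF genes passed in limma for any mark. GH3.1 alone passed, with 426, 270 and 307 bp of H3K4me2 in WT and 0 in all pkl libraries (fitted log2 difference -2.10, SE 0.14, adjusted p = 0.00259), at 0.275 ± 0.055 TPM in pkl. It entered the test through the WT libraries alone, which fixed the direction, and the size depends on the 100 bp added to values of 0.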

How the data were processed

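The members were chosen with earlier results of these data known, and so were the gene lists. Peaks were called for each library and deposited by the authors, with a -log10 q-value, a fold over control (a ratio), a summit and a score per peak, the score being the -log10 q-value on a larger scale in whole numbers as deposited. Each PKL summit named is that of the strongest peak touching the window in a list. The submitters' processing notes name Bowtie2 2.3.3, HISAT2 2.1.0, SAMtools 1.6, MACS2 2.2.5 and the build TAIR10; the control library of each peak list is not given in the sources used here. The authors deposited gene counts, and a second table titled FPKM that holds TPM, since each value times length over count is constant within a library (FPKM would be 0.742, 0.737 and 0.736 times the deposited values). Of the columns of per-sample values, 6 match no sample label and were not used. ChIP read depth is not given, so peak cover has no counting interval. Floors at 3 counts cover counting error only.

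Cover was computed in bp per gene from the coordinates in the count table, over 33331 nuclear genes (279 organelle genes left out). limma 3.58.1 in R 4.3.3 was fitted to log2(bp + 100) for genes above the minimum in at least 3 libraries, over 6 libraries for a mark and 12 for PKL, without the replicate number, at an adjusted p of 0.05, and was tested on simulated data. Fold changes on this scale understate the change of low values. Expression was planned as FPKM and is described as TPM. Gene symbols came from RefSeq, in which all 38 members and 28932 of 33610 genes had an entry. Per-library values are given for members past the threshold in any comparison, those bound in at least 2 WT libraries, the 3 highest and 3 lowest of each family in expression and the neighbouring pairs; others named with values were chosen after their values were seen. The non-overlap of centred libraries was added after seeing the data. Alternatives were other pseudocounts, filters, q-value limits, windows, equal peak numbers, centred libraries, a replicate block and leaving out each library.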

Additional observations from a re-analysis of the deposited data

How the results depend on the processing

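The numbers of members with longer PKL cover than in WT changed with the settings. Members longer than in WT numbered 16, 17 and 16 in jaw-5D, pifQ and hy5, and 8, 10 and 10 with centred libraries (35.2%, 33.2% and 32.8% of all genes tested). They were 3, 1 and 1 with equal numbers of peaks, where 4, 4 and 3 members were tested (43.1%, 41.6% and 30.3% of all genes tested). With the gene alone as window they were 13, 9 and 11 of 17 members tested (57.1%, 58.8% and 48.3% of all genes tested). Leaving out a library gave 16 to 17, 15 to 17 and 16 to 17. Bound members in WT were 4, but 1 in the gene window, 12 at 1 library and 2 at all 3 libraries. Equal numbers of peaks gave 6, 5 and 5 bound members in jaw-5D, pifQ and hy5 in place of 21, 21 and 20, and the gene window gave 12 in hy5. The ARF1 call in hy5 against jaw-5D fell to 0 with no filter, centred libraries, the replicate block and equal numbers of peaks, and to 0 with any library left out. Without jaw-5D replicate 1, IAA5 was longer in pifQ and in hy5 than in jaw-5D (0 to 1 members), against 1.47% and 0.83% of all genes tested. Without pifQ replicate 2, ARF1 was shorter in pifQ than in jaw-5D (0 to 1), against 1.01%. In both cases the library left out was the only one of its group with a peak on the gene. The direction was therefore largely fixed by that choice. H3K4me2 gave 2 members longer in pkl at a -log10 q of at least 10, IAA8 and ARF8 of 14 tested (4.21% of all genes tested), and 0 to 1 with a library left out (ARF1, without WT replicate 2). H3K4me3 gave 1 shorter at that limit, IAA1 of 23 tested (0.217% of all genes tested). At that limit H3K4me2 was on 10 members in place of 29 in WT and on 13 in place of 30 in pkl. The family medians reversed between bp and percent: ARF minus Aux/IAA was 503 bp and -9.54 percentage points for H3K4me2, 290 bp and -10.3 for H3K4me3, 129 bp and -3.71 for PKL in jaw-5D, and 45.7 bp and -1.17 for PKL in pifQ. Equal numbers of peaks, the gene window and the higher limit leave fewer members tested. The cause of the other changes was not tested.

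Same-numbered libraries had correlated deviations of -0.088 to 0.0813, so the numbers are not shown to pair samples. With the replicate block the longer members were 16, 16 and 17 in the 3 comparisons with WT, and 0 members passed for the marks. Over all genes, H3K4me1 calls fell from 74 longer and 20 shorter to 0 and 0 under the block, H3K4me2 calls from 227 and 112 to 68 and 50, and H3K4me3 calls from 191 and 65 to 121 and 44. Across all alternatives the numbers longer ranged from 0 to 328 for H3K4me1, 12 to 457 for H3K4me2 and 13 to 236 for H3K4me3, and the numbers shorter from 0 to 42, 1 to 162 and 4 to 75. For PKL against WT the numbers longer ranged from 252 to 8146 in jaw-5D, 239 to 8208 in pifQ and 163 to 7305 in hy5.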
